A study of Homo sapiens with 6 samples.

Results

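The comparison sets day 6 endoderm against the human embryonic stem cells (hESCs) it was made from, phase by phase. All 6 libraries of the series take part, 3 of endoderm and 3 of hESCs, and each type has a library from G1, a library from the G1/S border and a library from S phase. The phase label pairs an endoderm library with an hESC library, which gives 3 phase pairs. All 14686 regions of the deposited table enter, of 14686 in the series, and most weight is given to genes that differed in the same direction in all 3 pairs.

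The endoderm came from hESCs kept for 6 days in RPMI 1640 with activin A at 100 ng/ml. Its medium held no fetal bovine serum at first, then 0.2% and then 2.0%, with a medium change at day 3, and its G1, G1/S and S libraries were taken at 0, 3 and 6 h. The hESCs grew on growth factor reduced matrigel in medium conditioned on mouse embryonic fibroblasts, and their G1, G1/S and S libraries were taken at 0, 2 and 3 h. Both types are the H9 line, an established hESC line, at passage 51, with no transgene or allele named in the labels. Cell type, activin A, serum and base medium therefore differ together between the groups and cannot be told apart. What the hours are counted from, and how the cells were synchronised, is not stated in the labels.

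Activin A binds the same receptors as Nodal, the embryonic signal that turns pluripotent cells into mesendoderm and then into definitive endoderm, the germ layer of gut, liver and pancreas. In the embryo this step brings on T-box and homeobox factors first and SOX, forkhead and GATA factors next, and it sets off feedback by secreted antagonists such as LEFTY and Cerberus proteins. Pluripotent cells rest on POU5F1, SOX2 and NANOG and on FGF and Nodal signals. Each read was taken near the 3' end of a polyadenylated RNA, so a region's value follows the number of transcript ends and not transcript length.

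The libraries hold 5389666, 3205025 and 2502792 reads in endoderm G1, G1/S and S, while the hESC libraries of the same phases hold 4972977, 4194957 and 6203079. Values are reads divided by a size factor for each library. A single read is worth between 0.591 and 1.71, and 0 reads leave room for a value as high as 1.77 in the deepest library and 5.13 in the shallowest (3 reads, counting error only). Values are printed below in the order G1, G1/S, S. No type and phase has a second library and all come from 1 passage, so p-values measure only the spread among these libraries. In bulk RNA, more cells that hold a transcript and more of that transcript in each cell cannot be told apart.

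The label of endoderm was checked against its markers. Of 12 definitive endoderm markers with a region, 10 rose, among them SOX17, FOXA2, CXCR4, CER1, GATA4, GATA6, GSC, EOMES and LHX1, and all 10 kept their calls in each of the 6 fits that left out 1 library. CLDN6 and EPCAM did not pass, with differences of 0.80 and 0.05. The summed value of these 12 markers was 15771, 34241 and 20922 in endoderm, against 6136, 7638 and 3037 in hESCs. CLDN6 alone held 3355, 12213 and 11473 of it in endoderm and 5316, 7016 and 2405 in hESCs, most of the hESC sum. Of 9 pluripotency markers, SOX2, DNMT3B and UTF1 fell, and UTF1 alone kept its call whichever library was left out. The markers TDGF1, L1TD1, DPPA4 and LIN28 had differences above 0, of 0.98, 0.47, 0.45 and 0.41, and did not pass. POU5F1 and ZFP42 had differences of -0.01 and -0.67 and did not pass either. The summed value of the 9, which was 1691, 1991 and 1934 in endoderm, against 4418, 4521 and 3285 in hESCs, did not overlap between the types. Most of the hESC sum came from SOX2, with 1917, 1537 and 1391, and UTF1, with 1329, 1501 and 715. The sum thus does not show a fall of the markers that did not pass. NANOG, T, SOX7 and AFP have no region in the table, so the endoderm of the embryo proper and that of the yolk sac were not separated by SOX7 and AFP.

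The hESC G1/S library was low for a set of genes described further on. In a smaller set, by the medians, the endoderm G1/S library was low and the hESC G1/S library high. In a model of type and phase, 2125 of 14657 regions tested (14.5%) passed an adjusted p of 0.05 (limma with Benjamini-Hochberg adjustment), 1011 higher (6.9%) and 1114 lower (7.6%) in endoderm. Every one of these 2125 regions had the same sign in all 3 phase pairs. A difference of at least 1 on the log2(value + 1) scale in each pair was met by 1670 of them (11.4%), 752 higher (5.13%) and 918 lower (6.26%). At least 2 in each pair was met by 648, 284 higher and 364 lower. In 4893 regions (33.4%) the 3 endoderm libraries all lay on 1 side of the 3 hESC libraries. Both the number of calls and their balance moved with single libraries. The count was 252 higher and 336 lower without the endoderm G1/S library, 230 and 196 without the hESC G1/S library, and 204 and 205 without both. It was 601 and 597 without endoderm S, and 580 and 365 without hESC S. Without the G1 library it was 1238 and 1160 for endoderm and 1340 and 896 for hESCs. The higher calls were thus 59.9% of all calls without hESC G1 and 61.4% without hESC S, against 47.6% with all libraries. With at least 1 in every remaining pair, the 752 and 918 became 252 and 336 without endoderm G1/S, 230 and 196 without hESC G1/S, 533 and 579 without endoderm S, and 554 and 359 without hESC S.

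The regions that rose held a large share of endoderm RNA. They took 19.1%, 19.2% and 19.5% of the reads in endoderm, against 6.37%, 7.43% and 6.47% in hESCs. The regions that fell took 3.01%, 3.25% and 2.51% in endoderm, against 10.4%, 9.31% and 9.35% in hESCs. Of 858 regions with a mean value of at least 1000, 15.7% passed, 101 higher and 34 lower. Of 4731 below a mean of 20, 8.14% passed, 125 higher and 260 lower, against 14.5% of all regions tested. The shares of reads follow from the choice of the regions and are given as a description.

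The 3 pairs share no library, so each can be set beside the other pairs. Over the 6507 regions with a mean value of at least 50, the pair differences had a Pearson r of 0.64 between the G1 and S pairs, 0.61 between the G1 and G1/S pairs and 0.69 between the G1/S and S pairs, across regions that are not independent. The SD of the difference over these regions was 1.43 in the G1 pair, 1.39 in the S pair and 1.06 in the G1/S pair. Of 654 such regions at least 1 higher in the G1/S and S pairs, 566 (86.5%) were higher in the G1 pair too, and of 422 lower ones 410 (97.2%) were lower there. With the S pair left out, 485 of 509 higher regions (95.3%) and 412 of 416 lower regions (99.0%) kept their sign in it. With the G1/S pair left out, 637 of 701 higher regions (90.9%) kept their sign in it, but only 501 of 597 lower ones (83.9%) did. Over all 6507 regions, a pair shared its sign with another pair in 67.7% to 73.5%. The mean of at least 50 was taken over all libraries, so the pair left out had a part in choosing the regions.

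**Figure D1:**
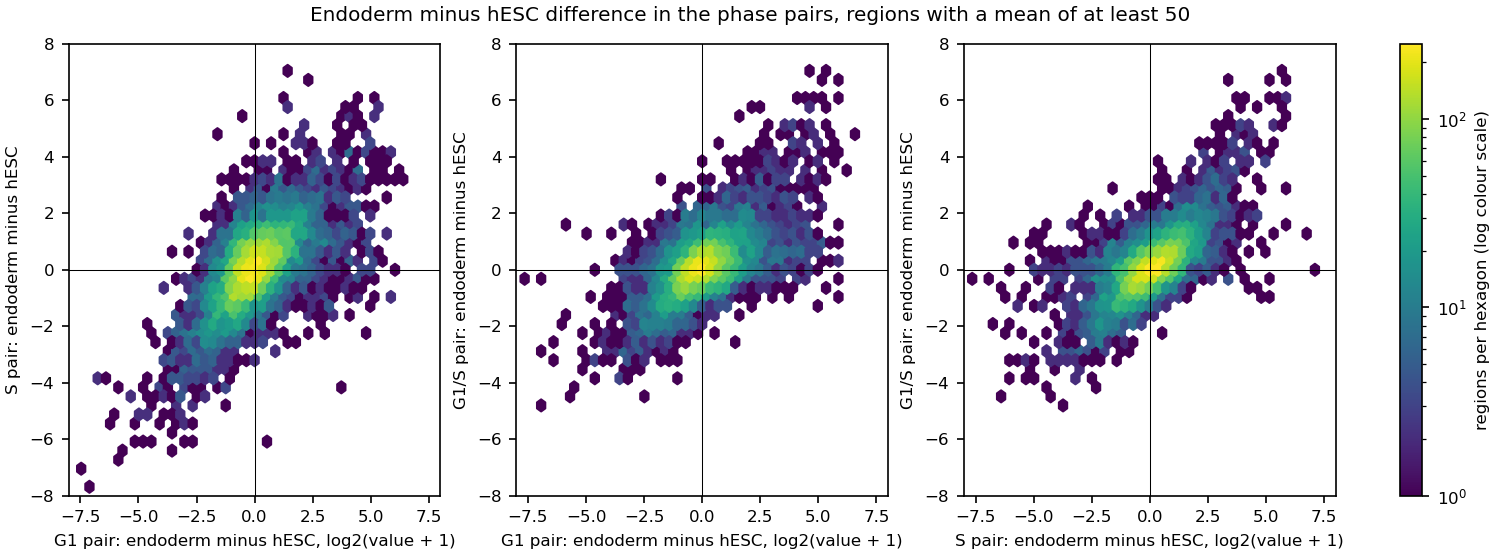
Difference of log2(value + 1), endoderm minus hESC, in 1 phase pair against another, for the 6507 regions with a mean of at least 50, with the colour giving the regions in a hexagon on a log scale. The cloud runs along the diagonal in all 3 panels (Pearson r 0.64, 0.61 and 0.69 from left to right), and an arm of regions that are low in the G1 or S pair lies near 0 in the G1/S pair.

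With 1 region for each gene name, 1368 of 9581 genes (14.3%) passed, 684 higher (7.14%) and 684 lower (7.14%), and 993 (10.4%) also differed by at least 1 in every pair, 471 higher (4.92%) and 522 lower (5.45%). The median log2 difference over these genes was 0.036. Without the hESC G1/S library 135 genes were higher (1.41%) and 133 lower (1.39%), and without that of endoderm 152 (1.59%) and 223 (2.33%). Without the S library of hESCs it was 332 (3.47%) and 239 (2.5%), and without that of endoderm 351 (3.67%) and 374 (3.91%). Without hESC G1 it was 955 (9.99%) and 625 (6.54%), and without endoderm G1 918 (9.59%) and 727 (7.59%). A list's counts without a library are to be read against the shares without that same library. The 471 and 522 were 135 and 133 without hESC G1/S, 152 and 223 without endoderm G1/S, 318 and 234 without hESC S, and 319 and 359 without endoderm S. The lists below are read against these shares, and a listed gene counts as tested only if it has a region in the table. Lists and members were chosen with earlier results of these data known, so their shares are a description and not independent evidence. In genes with a mean of at least 50, the median GC content of the last 500 bases of the transcripts was 50% among those that rose, 57.1% among those that fell and 53.4% over all tested, and its part in the calls was not tested.

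The genes described first are the 15 that rose and the 15 that fell whose smallest difference over the 3 pairs was largest, among genes with a mean of at least 50. Those that rose included regulators of endoderm and secreted signals. SOX17 (chr8:55535223-55535490, positions in hg18), a transcription factor that directs endoderm formation, had 200.2, 111 and 154 in endoderm, against 4.54, 1.04 and 1.77 in hESCs. Its differences were 5.18, 5.78 and 5.81 in the G1, G1/S and S pairs (5.59 ± 0.43 SE, limma adjusted p = 0.00183). FGF17 (chr8:21965759-21965974), a secreted fibroblast growth factor, had 15276, 20152 and 9856 in endoderm, against 433, 283 and 214 in hESCs, with differences of 5.14, 6.15 and 5.52 (5.60 ± 0.25 SE, limma adjusted p = 0.000677). Every endoderm library lay above every hESC library for both genes.

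DIO3 (chr14:101099223-101099539), which inactivates thyroid hormone, had 6677, 10361 and 5789 in endoderm, against 200.5, 98.9 and 88.0 in hESCs (5.92 ± 0.33 SE, limma adjusted p = 0.00118). RXRG (chr1:163637028-163637238, minus strand), a retinoid X receptor, had 117, 319 and 139 in endoderm, against 3.78, 4.16 and 1.18 in hESCs. GSC (chr14:94308943-94309131, minus strand), a homeobox factor of the organizer, had 2234, 5257 and 1951 in endoderm, against 99.9, 79.1 and 49.0 in hESCs. These 3 genes were highest in the endoderm G1/S library, and in none did the types overlap. NFU1 (chr2:69518944-69519282, minus strand), which helps to build iron-sulphur clusters in mitochondria, had 807, 522 and 390.3 in endoderm, against 28.7, 17.7 and 18.9 in hESCs. Its pair differences, 4.76, 4.81 and 4.30, lay close together (4.62 ± 0.30 SE, limma adjusted p = 0.00135).

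BMP2, a bone morphogenetic protein, had 137, 93.2 and 205 in endoderm, against 6.81, 3.12 and 4.73 in hESCs (4.61 ± 0.42 SE, limma adjusted p = 0.00230). EOMES, the T-box factor that starts mesendoderm, had 5269.6, 8989 and 3669.8 in endoderm, against 275, 277 and 219 in hESCs. CCDC81, a coiled-coil protein, had 1347, 2231 and 1249.5 in endoderm, against 68.1, 119 and 74.4 in hESCs, and its pair differences were 4.29, 4.22 and 4.05. The adhesion protein PCDH10 had 439, 165 and 584 in endoderm, against 25.7, 8.33 and 13.6 in hESCs, lowest in the G1/S library of each type. GATA4, a zinc finger factor of endoderm and heart, had 149.8, 229.6 and 161 in endoderm, against 4.54, 6.25 and 8.86 in hESCs, and its relative GATA6 had 215, 284 and 128 in endoderm, against 6.81, 3.12 and 7.09 in hESCs. PAX6, a paired-box factor known from eye, brain and pancreas, had 82.9, 148 and 139 in endoderm, against 4.54, 3.12 and 7.09 in hESCs. ANKRD1, an ankyrin repeat protein that responds to stretch, had 11426, 5569.9 and 14611 in endoderm, against 698, 383 and 476 in hESCs (4.28 ± 0.27 SE, limma adjusted p = 0.00131). The types did not overlap for any of these genes.

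The genes that fell in every pair included several with few endoderm reads. TCL1B (chr14:95228467-95228659), of a family that co-activates the kinase AKT, had 2.76, 8.32 and 6.85 in endoderm, against 156, 167 and 189 in hESCs (-4.72 ± 0.41 SE, limma adjusted p = 0.00221). HES3 (chr1:6228953-6229189), a basic helix-loop-helix repressor of the Hes family, had 0.690, 9.98 and 6.85 in endoderm, against 200.5, 318 and 103 in hESCs (-5.16 ± 0.61 SE, limma adjusted p = 0.00424). Its endoderm values rest on 1, 6 and 4 reads. GDPD2, a glycerophosphodiester phosphodiesterase, had 2.76, 1.66 and 3.42 in endoderm, against 98.3, 40.6 and 168 in hESCs. LTB, the lymphotoxin beta chain, had 4.14, 16.6 and 5.13 in endoderm, against 174, 227 and 224 in hESCs (-4.66 ± 0.43 SE, limma adjusted p = 0.00242). DES, the muscle intermediate filament desmin, had 20.7, 28.3 and 3.42 in endoderm, against 241, 404 and 264 in hESCs. For all 5 the lowest hESC library lay above the highest endoderm library.

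Among the 15 genes that fell, GRM4, a metabotropic glutamate receptor, had 20.7, 34.9 and 25.7 in endoderm, against 262, 501 and 241 in hESCs (-3.53 ± 0.31 SE, limma adjusted p = 0.00227). CNTN2, an axonal adhesion protein, had 15.9, 23.3 and 11.98 in endoderm, against 143, 209 and 171 in hESCs. LGI4, a secreted glial protein, had 10.4, 18.3 and 5.13 in endoderm, against 213, 201 and 105 in hESCs, and CAMKV, a kinase-like protein of neurons, had 16.6, 39.9 and 20.5 in endoderm, against 275, 306 and 187 in hESCs. GRM4, CNTN2, LGI4 and CAMKV were lower in every pair, by between 2.91 and 4.23. MMP9, a gelatinase, had 33.1, 66.5 and 54.8 in endoderm, against 461, 574 and 506 in hESCs (-3.34 ± 0.30 SE, limma adjusted p = 0.00221), and the gap between types was wider than the spread within either. HYAL1, a hyaluronidase, had 9.67, 11.6 and 1.71 in endoderm, against 107, 109 and 82.1 in hESCs. FXYD2, a regulator of the sodium pump, had 13.8, 49.9 and 17.1 in endoderm, against 391, 490.4 and 340.2 in hESCs. The gut hormone PYY had 1.38, 15.0 and 0 in endoderm, against 77.2, 154 and 60.8 in hESCs, the hair-cell scaffold USH1G 4.14, 13.3 and 3.42 in endoderm, against 113, 122 and 60.3 in hESCs, and the copine CPNE9 13.8, 18.3 and 13.7 in endoderm, against 129, 186 and 108 in hESCs.

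**Figure D2:**
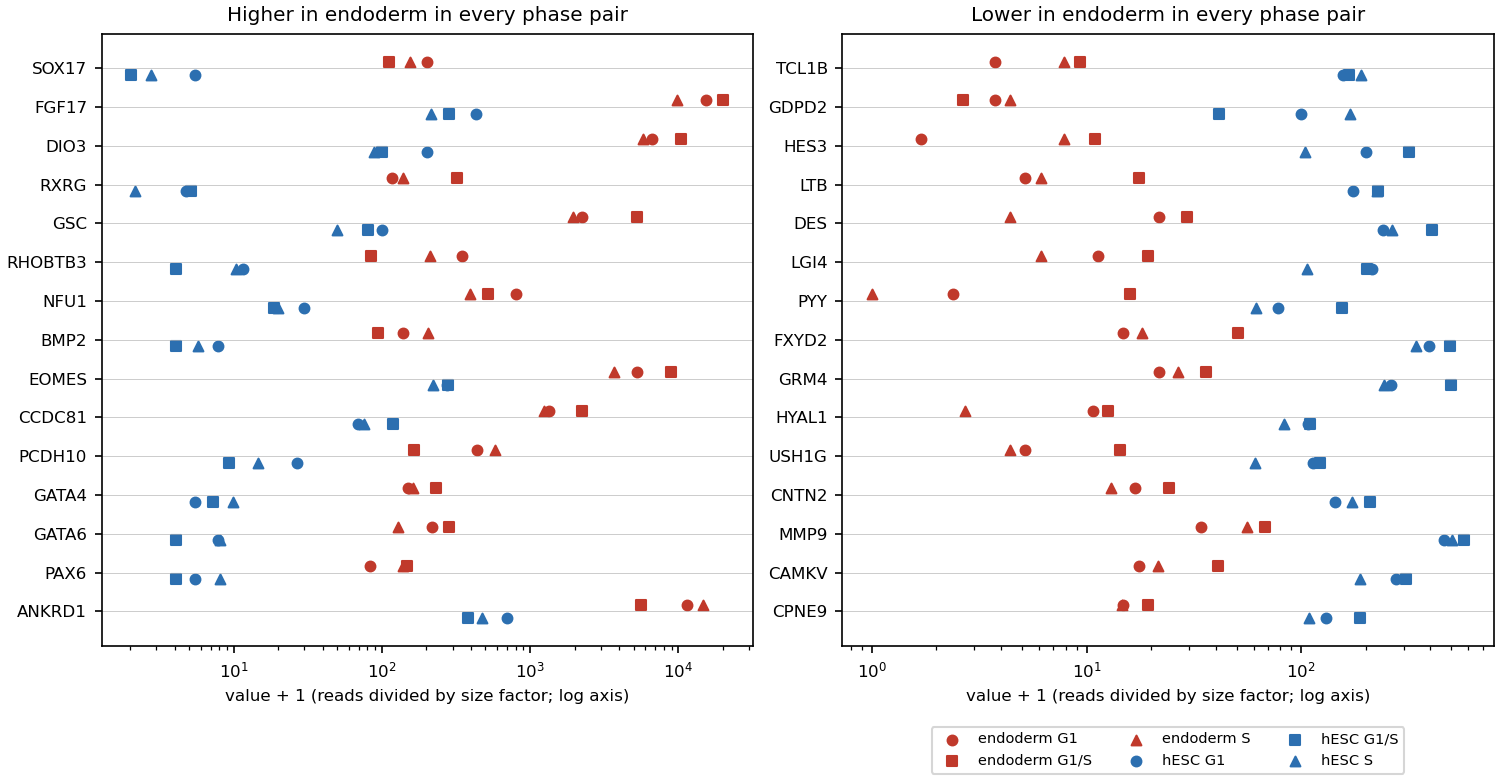
Value + 1 in each library on a log axis for the 15 genes with the largest smallest rise (left) and the 15 with the largest smallest fall (right) over the 3 phase pairs, endoderm in red above hESC in blue, with the marker shape giving the phase. The red and blue points of a gene do not overlap for any of the 30 genes, from SOX17 at 111 to 200.2 in endoderm and 1.04 to 4.54 in hESCs to CPNE9 at 13.7 to 18.3 in endoderm and 108 to 186 in hESCs. The genes were picked for a large difference in every pair, which makes overlap unlikely.

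All 30 of these genes kept their calls in the 20 alternatives run, which include the 6 fits that left out 1 library. They were picked for a large difference in every pair. Their kept calls and lack of overlap thus follow largely from that choice and are given as a description. A promoter of 300 bases was at hand for 21 of them in RefSeq (GRCh38.p14). The letters TATAAA, the core of a TATA box, stood on the gene's own strand within 100 bases before the start in DIO3 and HES3, the gene with the largest rise and the gene with the largest fall of the 30 on the log2(value + 1) scale. They are shown because they carry the same letters at nearly the same place while the genes moved in opposite directions. The window of DIO3 is chr14:101561395-101561494, with the motif starting 32 bases before the start, and that of HES3 is chr1:6244079-6244178, with the motif at 30 bases, both on the plus strand of GRCh38.p14. Capitals mark TATAAA.
DIO3: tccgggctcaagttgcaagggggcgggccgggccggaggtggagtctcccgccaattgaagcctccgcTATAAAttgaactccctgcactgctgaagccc
HES3: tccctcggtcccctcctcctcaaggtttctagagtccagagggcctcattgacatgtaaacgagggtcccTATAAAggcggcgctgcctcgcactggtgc
Among genes past the threshold and at least 1 in all pairs, such a TATAAA was found before 5.17% of 348 that rose and 3.77% of 345 that fell, against 1.91% of 7368 genes tested. Anywhere in the 300-base promoters (250 before and 50 after the start, either strand), TATAAA was in 9.20% of the genes that rose, 7.83% of those that fell and 5.06% of all. AGATAA, letters of GATA sites, was in 6.90%, 5.22% and 4.32%, and GGGCGG, letters of SP sites, in 67.8%, 64.6% and 73.1% in the same order. CAGACA, letters of SMAD sites, was in 14.1%, 15.7% and 11.7%, TGTTTAC, of forkhead sites, in 1.44%, 1.74% and 1.93%, and AACAAT, of SOX sites, in 5.17%, 4.93% and 4.60%. The median number of CpG in these promoters was 27, 19 and 27. None of these differences was tested.

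Among the most abundant genes that passed, most differences were under 2 on the log2 scale. TMSB10, an actin-binding thymosin, had 32313, 80364 and 52524 in endoderm, against 24533, 42429 and 18838 in hESCs (0.93 ± 0.23 SE, limma adjusted p = 0.0386), and TAGLN, an actin-bundling protein, had 25756, 69770.1 and 63657 in endoderm, against 18767, 32120.4 and 19192 in hESCs (1.10 ± 0.25 SE, limma adjusted p = 0.0309). In both the endoderm G1 library lay below the hESC G1/S library, so the types overlapped. IFITM1, an interferon-induced membrane protein, had 33479, 45040.0 and 21738 in endoderm, against 7995, 8331 and 6719 in hESCs, without overlap (2.06 ± 0.21 SE, limma adjusted p = 0.00326). Its reads may be shared with near-identical family members. APOE, a lipoprotein component, had 23178, 53389.8 and 26753 in endoderm, against 16443, 16821 and 8984 in hESCs, and the glycolytic enzyme PKM2 had 12196, 21396 and 15984 in endoderm, against 5597, 12283 and 5867 in hESCs. Both rose, by 1.25 and 1.12, with overlap of the types in PKM2.

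The abundant genes that fell included 2 regions of the mitochondrial genome. That named for cytochrome b (chrM:15013-16577) had 3070.5, 8794 and 2467 in endoderm, against 15945, 16491 and 12211 in hESCs (-1.86 ± 0.31 SE, limma adjusted p = 0.0117), and the other, named by a cDNA, had 19603, 45795 and 16049 in endoderm, against 73304, 84889 and 42232 in hESCs. The types overlapped only in the region named by a cDNA, where endoderm G1/S lay above hESC S. SEPW1, a selenoprotein, had 3538, 5312 and 3639 in endoderm, against 6490.3, 10698 and 7632 in hESCs (-0.98 ± 0.19 SE, limma adjusted p = 0.0190), and TKT, a pentose phosphate enzyme, had 2979, 3709.9 and 3315 in endoderm, against 6344, 6964 and 4593 in hESCs. GPX1, a selenium-dependent peroxidase, had 2250.2, 2464 and 1984 in endoderm, against 9374, 2941 and 11869.6 in hESCs, so its pair differences were -2.06, -0.26 and -2.58.

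Of the FGF pathway, 23 of 45 listed genes were tested, 6 rose and 1 fell, with a median log2 difference of 0.49. Its ligands moved in opposite directions. FGF17 rose as above and its close relative FGF8 had 222, 413 and 92.4 in endoderm, against 17.4, 46.9 and 31.3 in hESCs (2.75 ± 0.45 SE, limma adjusted p = 0.0111), while FGF2, a ligand that sustains hESCs, fell and had 24.9, 19.96 and 27.4 in endoderm, against 114, 55.2 and 72.1 in hESCs (-1.65 ± 0.37 SE, limma adjusted p = 0.0291). The decoy receptor FGFRL1 and the inhibitors IL17RD and SPRY2 rose by 1.43, 2.45 and 1.68. DUSP4, a phosphatase that turns off MAP kinases, had 1293, 2357 and 1775 in endoderm, against 191, 65.6 and 161 in hESCs (3.78 ± 0.44 SE, limma adjusted p = 0.00418). FGF17 and DUSP4 kept their calls whichever library was left out. The 6 rises were 3 without either S library and 2 without either G1/S library. The 1 fall became none without either G1/S library or either S library or hESC G1.

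In the TGF-beta and BMP pathway, 11 of 47 genes rose and 2 fell (68 genes listed, median 0.45). Of the ligands, BMP2 rose as above and GDF3, a Nodal-related factor, had 220.3, 53.2 and 109.5 in endoderm, against 6.05, 8.33 and 12.4 in hESCs (3.52 ± 0.53 SE, limma adjusted p = 0.00889). The secreted antagonists moved apart. LEFTY2 and CER1, which bind Nodal or its co-receptor, had 17242, 13139.5 and 7252 in endoderm, against 379.8, 706 and 688 in hESCs, and 2484, 1989.7 and 1578 in endoderm, against 117, 62.5 and 119 in hESCs. FST, which binds activin, had 4349, 2422 and 1789 in endoderm, against 295, 611 and 735 in hESCs (2.38 ± 0.46 SE, limma adjusted p = 0.0185), and NBL1, a BMP antagonist, 1614, 2953 and 1809 in endoderm, against 496, 598 and 328 in hESCs. CHRD, chordin, another BMP antagonist, fell (-2.89 ± 0.54 SE, limma adjusted p = 0.0177), with 3.45, 3.33 and 3.42 in endoderm, against 43.9, 21.9 and 33.1 in hESCs. LEFTY1, near identical to LEFTY2, had 1344, 275 and 308 in endoderm, against 2933, 281 and 9399 in hESCs and did not pass (-2.03 ± 0.80 SE, limma adjusted p = 0.122).

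The receptor ACVR1B, which carries activin and Nodal signals, rose by 1.71, and BMPR1A, a BMP receptor, fell, with a difference of -1.96. Inside the cell, the inhibitors SMAD6 and SMAD7 and the decoy receptor BAMBI rose by 2.36, 1.69 and 1.97. BMP2, LEFTY2, CER1, GDF3 and NBL1 kept their calls whichever library was left out. The 11 rises were 5 without either G1/S library. The 2 falls were 4 without either G1 library, 1 without endoderm S and none without either G1/S library or hESC S.

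Wnt pathway genes rose in 8 of 40 tested (74 listed), with 1 fall and a median of 0.69. Receptors FZD8 and FZD5 had 165, 63.2 and 168 in endoderm, against 3.78, 6.25 and 6.50 in hESCs, and 219.6, 74.9 and 109.5 in endoderm, against 5.30, 15.6 and 8.86 in hESCs (4.25 ± 0.49 SE, limma adjusted p = 0.00418 and 3.60 ± 0.57 SE, limma adjusted p = 0.0102). FZD2 rose by 1.51. PORCN, which acylates Wnt ligands so that they can be secreted, had 970.1, 1758 and 1431 in endoderm, against 142, 117 and 106 in hESCs (3.47 ± 0.30 SE, limma adjusted p = 0.00221), and the ligand WNT9B had 49.0, 99.8 and 42.8 in endoderm, against 9.84, 20.8 and 18.3 in hESCs. The target gene SP5 had 59.4, 25.0 and 82.2 in endoderm, against 3.03, 0 and 4.13 in hESCs. Antagonists moved apart. SFRP1 had 1636, 396 and 1131 in endoderm, against 162, 101 and 100.4 in hESCs and NOTUM, a deacylase of Wnt ligands, 35.2, 44.9 and 37.7 in endoderm, against 5.30, 3.12 and 4.73 in hESCs, while SFRP2 fell, with 133, 118 and 188 in endoderm, against 284, 379 and 458 in hESCs. FZD8, FZD5, SP5, PORCN and SFRP1 kept their calls whichever library was left out. The 8 rises were 5 without either G1/S library. The 1 fall became 3 without either G1 library and none without either G1/S library or hESC S.

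The Notch and Hedgehog lists, 29 genes tested, had 3 rises and 3 falls (49 genes listed, median -0.26). SHH, the Hedgehog ligand, had 35.2, 106 and 61.6 in endoderm, against 0.757, 1.04 and 1.77 in hESCs (4.86 ± 0.58 SE, limma adjusted p = 0.00433), while GLI1, a transcriptional target of the pathway, fell, with 40.7, 66.5 and 41.1 in endoderm, against 96.1, 145 and 105 in hESCs (-1.22 ± 0.31 SE, limma adjusted p = 0.0426). Of Notch genes, HES4 rose (663, 2644 and 962 in endoderm, against 291, 441 and 183 in hESCs), MAML3, a co-activator, rose by 3.10, LFNG, which glycosylates Notch, fell (104, 655 and 176 in endoderm, against 315, 1038 and 607 in hESCs) and HES3 fell as above. HES3 alone of the 6 kept its call whichever library was left out. The 3 rises were 1 without hESC G1/S and none without endoderm G1/S. The 3 falls were 1 without either S library.

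**Figure D3:**
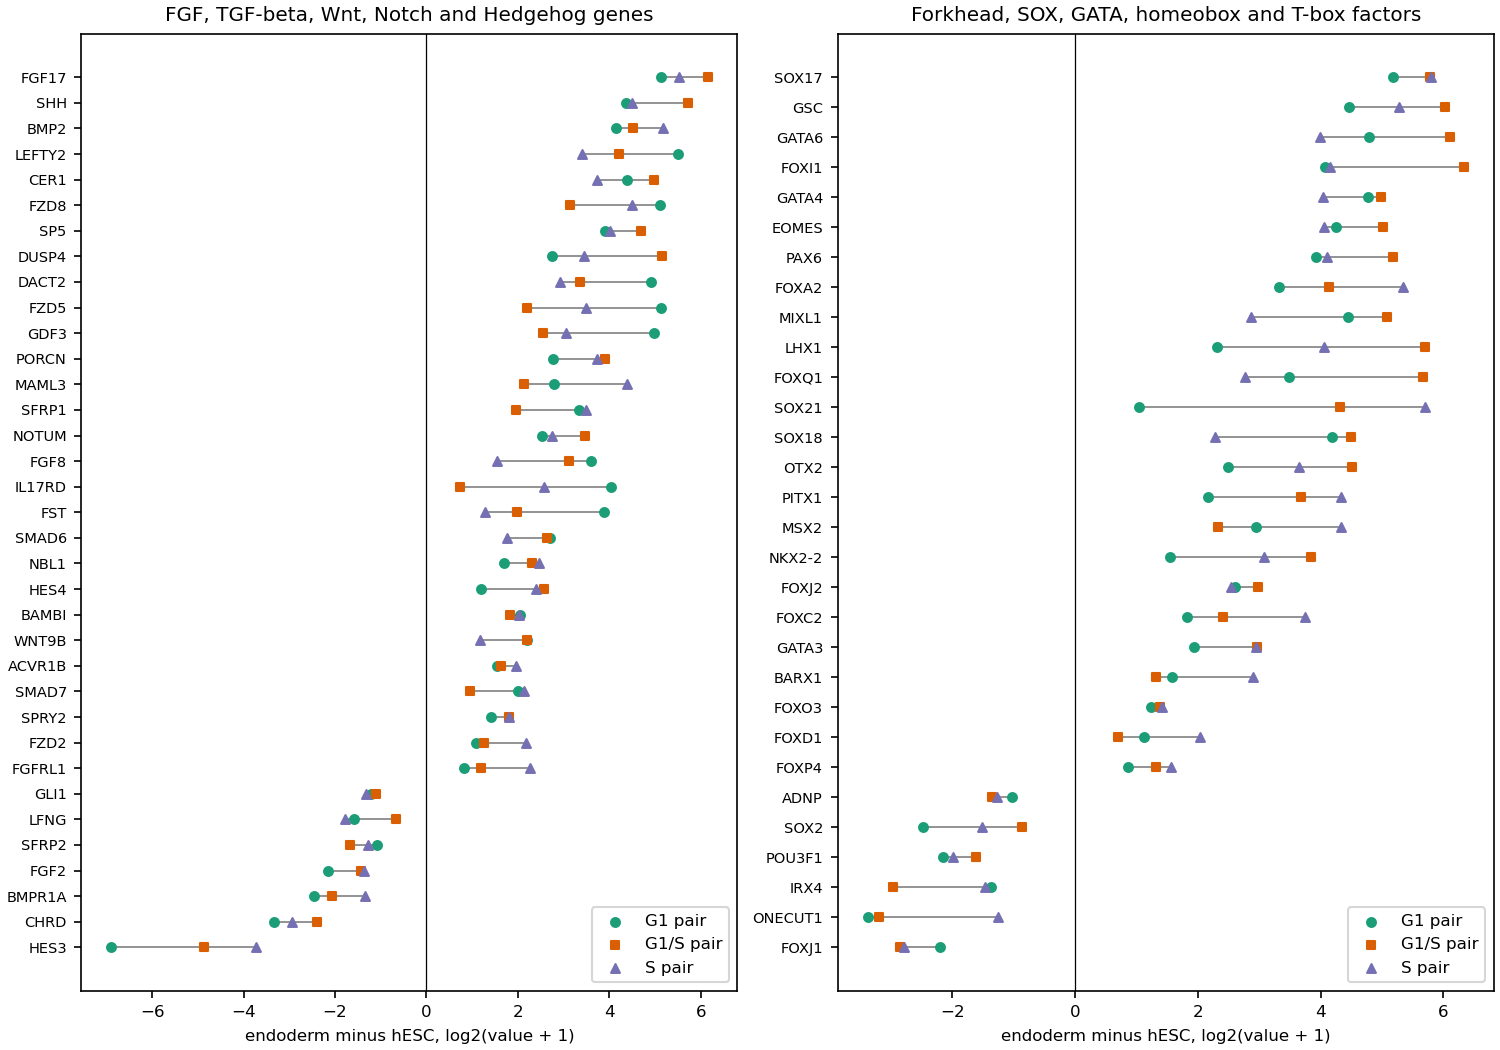
Endoderm minus hESC difference of log2(value + 1) in the G1, G1/S and S pairs for the genes of the FGF, TGF-beta and BMP, Wnt, Notch and Hedgehog lists (left) and of the forkhead, SOX, GATA, homeobox and T-box lists (right) that passed the threshold, leaving out some members not reported here, with a grey line joining the lowest and highest pair. Each gene shown keeps its sign in all 3 pairs. HES3 is lowest in the left panel, at -6.90, -4.86 and -3.73.

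Cytokine, chemokine and hormone genes changed in 23 of 55, 16 up and 7 down (101 genes listed, median 0.39). The chemokine receptor CXCR7 had 70.4, 58.2 and 80.4 in endoderm, against 1.51, 1.04 and 1.77 in hESCs, with pair differences of 4.83, 4.86 and 4.88. CXCR4, which binds the same ligand, had 732, 316 and 525 in endoderm, against 16.6, 11.5 and 39.0 in hESCs. NPPB, a natriuretic peptide, had 6075, 3101 and 6254 in endoderm, against 193, 145 and 496 in hESCs (4.35 ± 0.29 SE, limma adjusted p = 0.00135), and IGFBP5, which binds insulin-like growth factors, 1803, 1353 and 2651 in endoderm, against 142, 93.7 and 75.02 in hESCs (4.21 ± 0.34 SE, limma adjusted p = 0.00213). EDN1, the vasoconstrictor endothelin, had 253, 418 and 789 in endoderm, against 99.9, 44.8 and 135 in hESCs, and STC2, a secreted glycoprotein, 3992, 8042 and 7134 in endoderm, against 1920.1, 2488 and 1919 in hESCs. CXCR7, CXCR4, NPPB and IGFBP5 were the 4 rises kept whichever library was left out.

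Of the cytokine genes that fell, LTB and its receptor LTBR moved together, and LTBR had 8.29, 6.65 and 1.71 in endoderm, against 40.1, 63.5 and 34.3 in hESCs (-2.97 ± 0.52 SE, limma adjusted p = 0.0142). IL32 had 116, 229.6 and 279 in endoderm, against 892, 1011 and 859 in hESCs, the neurotrophin receptor NGFR 78.7, 169.7 and 128 in endoderm, against 575, 1096 and 329 in hESCs, and PGF, placental growth factor, 96.7, 148 and 53.1 in endoderm, against 373, 531 and 494 in hESCs. The types did not overlap in these 4 genes. PYY and LTB kept their falls whichever library was left out. The 16 rises were 10 without hESC S and 4 without either G1/S library. The 7 falls were 4 without endoderm G1/S and 2 without hESC G1/S.

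Guidance genes, those of axon and cell path finding, changed in 9 of 42, 6 up and 3 down (66 genes listed, median 0.19). The semaphorin receptor PLXNA2 had 360.4, 246 and 238 in endoderm, against 25.7, 20.8 and 20.7 in hESCs (3.57 ± 0.31 SE, limma adjusted p = 0.00221), the ephrin receptor EPHB3 96.7, 208 and 128 in endoderm, against 18.2, 11.5 and 10.6 in hESCs, and netrin NTN1 744, 655 and 356 in endoderm, against 126, 83.3 and 91.6 in hESCs. EPHA1 and the class 3 semaphorins SEMA3B and SEMA3F fell. SEMA3B had 78.0, 115 and 85.6 in endoderm, against 418, 497 and 326 in hESCs (-2.14 ± 0.28 SE, limma adjusted p = 0.00541). PLXNA2, EPHB3 and NTN1 kept their calls whichever library was left out. The 6 rises were 3 without endoderm G1/S. The 3 falls were 1 without endoderm G1/S or hESC S and none without hESC G1/S.

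Of 39 forkhead, SOX and GATA factors tested (72 listed), 14 rose and 2 fell, with a median of 0.78. FOXA2, a pioneer factor of endoderm, had 92.5, 53.2 and 111 in endoderm, against 8.32, 2.08 and 1.77 in hESCs (4.27 ± 0.53 SE, limma adjusted p = 0.00489). FOXI1 had 53.9, 79.9 and 27.4 in endoderm, against 2.27, 0 and 0.591 in hESCs, FOXQ1 69.7, 103 and 46.2 in endoderm, against 5.30, 1.04 and 5.91 in hESCs, and SOX18, known from vessels, 211, 659 and 83.9 in endoderm, against 10.6, 28.1 and 16.5 in hESCs. SOX21 was uneven, with pair differences of 1.05, 4.32 and 5.71. SOX2, a core pluripotency factor, fell, with 342, 843 and 486 in endoderm, against 1917, 1537 and 1391 in hESCs (-1.62 ± 0.33 SE, limma adjusted p = 0.0214), and FOXJ1, which drives motile cilia, had 60.8, 56.6 and 27.4 in endoderm, against 284, 414 and 196 in hESCs. SOX17, GATA6, GATA4 and FOXA2 kept their rises and FOXJ1 its fall whichever library was left out. The 14 rises were 9 without hESC S, 8 without endoderm S and 5 without either G1/S library. The 2 falls were 1 without hESC G1/S.

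Among 39 homeobox and T-box factors, 12 rose and 5 fell (140 genes listed, median 0.60). MIXL1, a mesendoderm factor, had 684, 1437 and 265 in endoderm, against 30.3, 41.6 and 35.4 in hESCs (4.13 ± 0.44 SE, limma adjusted p = 0.00357), and LHX1, a LIM factor of organizer and anterior mesendoderm, 661, 4587 and 1006 in endoderm, against 132, 87.5 and 59.7 in hESCs. OTX2, of anterior endoderm and forebrain, had 369, 594 and 443 in endoderm, against 65.1, 25.0 and 34.3 in hESCs (3.55 ± 0.42 SE, limma adjusted p = 0.00424). POU3F1, a neural POU factor, fell with 60.1, 103 and 58.2 in endoderm, against 270.1, 318 and 233 in hESCs, and ADNP, IRX4 and ONECUT1 also fell. GSC, EOMES, PAX6, MIXL1, LHX1 and OTX2 were among those that kept their calls whichever library was left out. The 12 rises were 7 without either G1/S library. The 5 falls were 2 without either S library, 1 without endoderm G1/S and none without hESC G1/S.

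Of 38 basic helix-loop-helix and KLF/SP factors, 8 rose and 1 fell (87 genes listed, median 0.23). KLF5 had 247, 373 and 650.4 in endoderm, against 43.1, 72.9 and 52.6 in hESCs (2.81 ± 0.35 SE, limma adjusted p = 0.00481), KLF6 457, 431 and 652 in endoderm, against 62.0, 78.1 and 187 in hESCs, and TWIST1, a mesenchymal factor, 72.5, 111 and 264 in endoderm, against 10.6, 35.4 and 21.3 in hESCs. WBSCR14, the older name of the glucose-sensing factor MLXIPL, fell with 24.9, 11.6 and 13.7 in endoderm, against 84.7, 127 and 65.0 in hESCs (-2.41 ± 0.43 SE, limma adjusted p = 0.0156). SP5, KLF5 and TWIST1 kept their calls whichever library was left out. The 8 rises were 5 without endoderm S, 4 without endoderm G1/S or hESC S and 3 without hESC G1/S. The 1 fall became none without either G1/S library.

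Nuclear receptor and retinoid genes changed in 13 of 31, 8 up and 5 down (68 genes listed, median 0.20). The deiodinase DIO2, which activates thyroid hormone, rose along with DIO3, which inactivates it, and had 42.8, 186 and 270.4 in endoderm, against 11.3, 11.5 and 18.3 in hESCs (3.18 ± 0.49 SE, limma adjusted p = 0.00946). HNF4A, a liver and gut receptor, had 149.8, 229.6 and 145 in endoderm, against 18.9, 20.8 and 21.9 in hESCs (3.00 ± 0.34 SE, limma adjusted p = 0.00404), and NR4A1 89.1, 199.6 and 147 in endoderm, against 16.6, 32.3 and 23.6 in hESCs. CYP26A1, which degrades retinoic acid, had 726, 303 and 288 in endoderm, against 97.6, 38.5 and 103 in hESCs (2.43 ± 0.37 SE, limma adjusted p = 0.00884). Several genes of retinoid uptake, binding and response fell. PP14296, an older name of the retinol importer STRA6, had 27.6, 28.3 and 18.8 in endoderm, against 152, 226 and 234 in hESCs (-2.98 ± 0.36 SE, limma adjusted p = 0.00448), the receptor RARG 42.8, 44.9 and 71.9 in endoderm, against 261, 127 and 519.8 in hESCs, and the binding protein CRABP1 1512, 2214 and 2066 in endoderm, against 4652, 3040.2 and 5098 in hESCs. DHRS3, which reduces retinal, had 25.5, 16.6 and 39.4 in endoderm, against 409, 25.0 and 699 in hESCs, so that the fall was small in the G1/S pair. The 8 rises were 4 without endoderm G1/S and 3 without hESC G1/S. The 5 falls were 3 without either G1/S library and 2 without either S library. DIO3, RXRG, HNF4A, RARG and STRA6 kept their calls throughout.

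Pluripotency and hESC surface genes fell in 15 of 46 and rose in 5 (69 genes listed, median -0.61). UTF1, a chromatin factor of stem cells, had 107, 281 and 159 in endoderm, against 1329, 1501 and 715 in hESCs (-2.73 ± 0.33 SE, limma adjusted p = 0.00476), and DNMT3B, a methyltransferase, 166, 126 and 125 in endoderm, against 469.8, 453 and 393 in hESCs. LECT1, chondromodulin, had 9.67, 18.3 and 5.13 in endoderm, against 67.3, 183 and 263 in hESCs, and the kinase LCK 34.5, 25.0 and 25.7 in endoderm, against 276, 54.1 and 459 in hESCs. THY1, a surface protein, had 1189.7, 1615 and 2089.9 in endoderm, against 3340.1, 5536 and 4288 in hESCs, and PRDM14, a transcriptional repressor of pluripotent cells, 138, 389 and 356 in endoderm, against 483, 748 and 728 in hESCs. The 5 that rose were OTX2, GDF3, ZIC2, SALL4 and NTS. ZIC2 had 93.2, 68.2 and 99.3 in endoderm, against 47.7, 12.5 and 23.6 in hESCs (1.78 ± 0.41 SE, limma adjusted p = 0.0302). OTX2 and GDF3 kept their rises, and UTF1 and HES3 their falls, whichever library was left out. The 5 rises were 3 without endoderm S and 2 without either G1/S library or hESC S. The 15 falls were 6 without hESC S, 5 without endoderm G1/S and 3 without hESC G1/S.

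POU5F1, the core pluripotency factor, had 255, 293 and 312 in endoderm, against 154, 596 and 259 in hESCs and did not pass (-0.01 ± 0.37 SE, limma adjusted p = 0.989). TDGF1, the Nodal co-receptor, had 51.8, 23.3 and 30.8 in endoderm, against 19.7, 9.37 and 23.6 in hESCs (0.98 ± 0.43 SE, limma adjusted p = 0.156). The difference in TDGF1 was above 0 in every pair, of 1.35, 1.23 and 0.37, and missed the threshold.

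Germline and early embryo genes fell in 6 of 15 tested (67 listed), though the median was 0.22. Beside TCL1B, CABYR, a sperm flagellum protein, had 0, 0 and 1.71 in endoderm, against 34.0, 5.21 and 234 in hESCs (-4.73 ± 0.89 SE, limma adjusted p = 0.0175), and ZSCAN10, a zinc finger factor, 282, 537 and 349 in endoderm, against 862, 1097 and 673 in hESCs. TCL1B alone kept its fall whichever library was left out. The 6 falls were 2 without either G1/S library and 1 without hESC S.

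Imprinted genes rose in 4 of 26 and fell in 5 (56 genes listed, median 0.44). CDKN1C, an inhibitor of cyclin-dependent kinases, had 967, 702 and 520.3 in endoderm, against 188, 119.7 and 197 in hESCs (2.10 ± 0.31 SE, limma adjusted p = 0.00805). The growth factor IGF2 and its clearance receptor IGF2R rose together, IGF2 with 171, 369 and 394 in endoderm, against 80.2, 156 and 93.3 in hESCs, and IGF2R with 111, 69.9 and 125 in endoderm, against 30.3, 28.1 and 37.2 in hESCs. SNURF, of the Prader-Willi locus, fell and had 23.5, 11.6 and 17.1 in endoderm, against 157, 27.1 and 191 in hESCs. DIO3 alone kept its call whichever library was left out. The 4 rises were 7 without either G1 library, 2 without either S library and 1 without either G1/S library. The 5 falls were 3 without either G1 library, 2 without endoderm S, 1 without either G1/S library and none without hESC S.

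**Figure D4:**
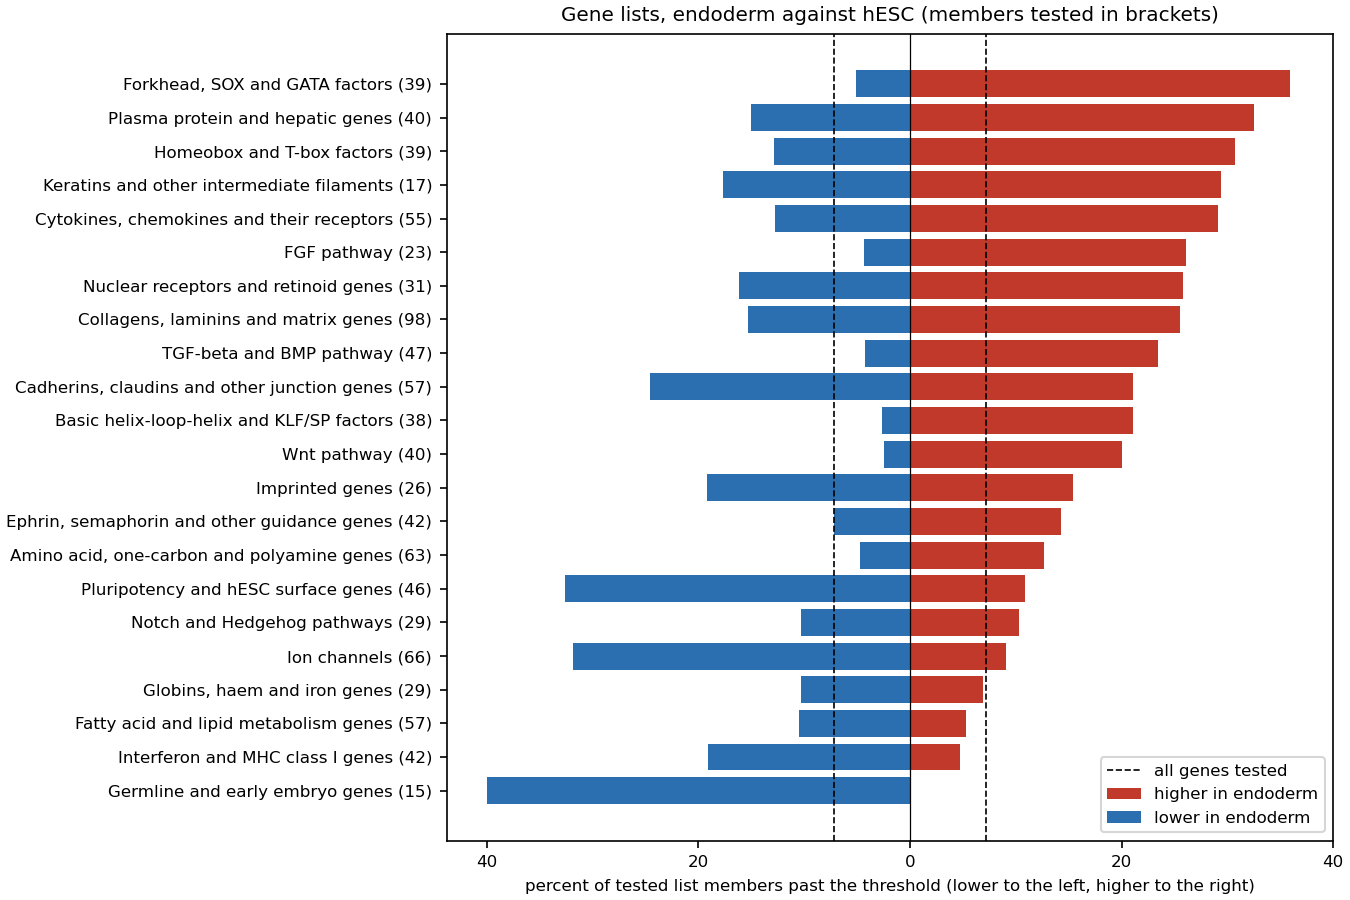
Percent of the tested members of each list that passed higher (red, to the right) or lower (blue, to the left) in endoderm, with the members tested in brackets and dashed lines at the 7.14% of all genes that passed in each direction. Forkhead, SOX and GATA factors and plasma protein genes reach farthest to the right, and germline genes, pluripotency genes and ion channels farthest to the left. The lists were chosen with earlier results of these data known, so their order is a description.

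Plasma protein and hepatic genes rose in 13 of 40 and fell in 6 (77 genes listed, median 1.17). APOA1 and APOA2, the chief proteins of high-density lipoprotein, had 1748, 5202 and 2754 in endoderm, against 270.1, 304 and 167 in hESCs, and 2111, 3074 and 1034 in endoderm, against 154, 142 and 145 in hESCs (3.61 ± 0.33 SE, limma adjusted p = 0.00230 and 3.67 ± 0.34 SE, limma adjusted p = 0.00238). APOC1 had 5453, 8243 and 4608 in endoderm, against 1956, 2851 and 2118 in hESCs. SERPINE2, a protease inhibitor, had 1716, 1630.4 and 1089 in endoderm, against 129, 194 and 161 in hESCs (3.18 ± 0.28 SE, limma adjusted p = 0.00221), and S100A16, a calcium-binding protein, 2694, 2138 and 1920.5 in endoderm, against 288, 433 and 516 in hESCs. DGAT2, which makes triglyceride, had 215, 331 and 168 in endoderm, against 26.5, 43.7 and 30.1 in hESCs (2.77 ± 0.32 SE, limma adjusted p = 0.00404). SERPINF2, an inhibitor of plasmin, fell with 14.5, 8.32 and 5.13 in endoderm, against 74.1, 76.0 and 60.8 in hESCs, and SERPINF1 with 84.9, 113 and 111 in endoderm, against 201, 261 and 308 in hESCs. TTR, a carrier of thyroid hormone and retinol, fell, with 0 reads in every endoderm library, where 3 reads would give a value of 2.07 to 5.13, against 15.1, 15.6 and 14.8 in hESCs. TTR met the filter of 3 libraries only through its hESC values, so any call of it could only be a fall. In fits that left out an hESC library TTR was not tested. The 7 rises kept whichever library was left out included those of APOA2, APOA1, SERPINE2, HNF4A, DGAT2 and S100A16. The 13 rises were 8 without hESC G1/S and 7 without endoderm G1/S. The 6 falls were 2 without endoderm S, 1 without hESC S and none without either G1/S library.

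Collagens, laminins and other matrix genes changed in 40 of 98, 25 up and 15 down (153 genes listed, median 0.42). COL2A1, a collagen of cartilage and notochord, had 701, 1041 and 637 in endoderm, against 49.9, 39.6 and 28.9 in hESCs (4.29 ± 0.30 SE, limma adjusted p = 0.00146), and COL9A2 434, 652 and 431 in endoderm, against 62.8, 90.6 and 56.1 in hESCs (2.84 ± 0.27 SE, limma adjusted p = 0.00279). FREM1, a basement membrane protein, had 126, 33.3 and 83.9 in endoderm, against 2.27, 1.04 and 1.77 in hESCs, and SPARC 3079, 1189.5 and 3011 in endoderm, against 697, 578 and 739 in hESCs. The basement membrane chains COL4A1, COL4A2 and LAMB1 rose by 1.73, 1.09 and 1.72. The laminin chains LAMB3 and LAMC3 fell, LAMC3 with 223, 288 and 214 in endoderm, against 658, 776 and 559 in hESCs.

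COL7A1, the anchoring fibril collagen, had 809.9, 2263 and 2044 in endoderm, against 7956, 8682 and 5548 in hESCs (-2.22 ± 0.35 SE, limma adjusted p = 0.00957), COL16A1 17.3, 25.0 and 11.98 in endoderm, against 133, 151 and 159 in hESCs (-3.02 ± 0.37 SE, limma adjusted p = 0.00481), and COL1A1, the main fibrillar collagen, 565, 742 and 1210.2 in endoderm, against 1712, 3482 and 3479 in hESCs. For all 3 the types did not overlap. FREM1, COL2A1, COL9A2, SPARC, MMP9 and COL16A1 kept their calls whichever library was left out. The 25 rises were 15 without endoderm S, 14 without hESC S, 6 without endoderm G1/S and 4 without hESC G1/S. The 15 falls were 8 without hESC S, 5 without endoderm G1/S and 3 without hESC G1/S.

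Of 57 junction genes, 12 rose and 14 fell (98 genes listed, median 0.047). CDH2, N-cadherin, had 1777, 744 and 1186 in endoderm, against 248, 198 and 307 in hESCs (2.23 ± 0.28 SE, limma adjusted p = 0.00509), and CDH1, E-cadherin, had 17.95, 19.96 and 10.3 in endoderm, against 68.8, 71.8 and 70.3 in hESCs (-2.11 ± 0.39 SE, limma adjusted p = 0.0174). Protocadherins PCDH9 and PCDH17 rose beside PCDH10, by 3.18 and 3.11. Of gap junction connexins, GJA1 rose with 402, 304 and 267 in endoderm, against 97.6, 94.7 and 77.4 in hESCs, and GJB5 fell with 5.52, 9.98 and 5.13 in endoderm, against 70.4, 94.7 and 70.9 in hESCs (-3.38 ± 0.41 SE, limma adjusted p = 0.00448). Tight junction genes split, with TJP1 and CGN up by 1.55 and 1.33, and TJP3, CLDN3, CLDN7 and CLDN19 down. TJP3 had 26.9, 33.3 and 18.8 in endoderm, against 139, 166 and 98.1 in hESCs and CLDN7 308, 474 and 341 in endoderm, against 943, 1359.7 and 753 in hESCs. The desmosome protein DSP had 391, 158 and 717 in endoderm, against 94.6, 41.6 and 138 in hESCs. PCDH10, CDH2, DSP, GJB5 and SNAI3 kept their calls whichever library was left out. The 12 rises were 5 without either S library and 3 without either G1/S library. The 14 falls were 9 without endoderm S, 5 without endoderm G1/S or hESC S and 4 without hESC G1/S.

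Keratins and other intermediate filaments rose in 5 of 17 and fell in 3 (35 genes listed, median 0.68). KRT8, a keratin of simple epithelia, had 2644, 5779.5 and 4279 in endoderm, against 346, 1273 and 413 in hESCs (2.83 ± 0.28 SE, limma adjusted p = 0.00311), and KRT19 7628, 10576 and 6968 in endoderm, against 4448, 5246 and 4144 in hESCs (0.85 ± 0.19 SE, limma adjusted p = 0.0296). KRT8 has many processed copies in the genome that could share its reads. KRT7 and KRT17 fell, with 22.8, 41.6 and 56.5 in endoderm, against 159.6, 249.9 and 219.7 in hESCs, and 4.83, 26.6 and 17.1 in endoderm, against 83.2, 138 and 91.6 in hESCs. The neurofilaments NEFM and NEFL rose, most in the S pair, with differences of 1.46, 5.48 and 5.77, and 1.79, 1.94 and 4.64. KRT8 and DES kept their calls whichever library was left out. The 5 rises were 3 without either S library and 1 without either G1/S library. The 3 falls were 1 without hESC G1/S. With no intensity trend in the fit, 1 member rose and 5 fell, so the balance of this list depended on the model.

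Ion channels fell in 21 of 66 and rose in 6 (137 genes listed, median -0.94). GABRD, a GABA receptor subunit, had 3.45, 6.65 and 0 in endoderm, against 90.0, 76.0 and 59.1 in hESCs (-4.53 ± 0.61 SE, limma adjusted p = 0.00610), and GRIN1, the obligate NMDA receptor subunit, 1.38, 1.66 and 1.71 in endoderm, against 44.6, 57.3 and 14.8 in hESCs. The calcium channel subunits CACNA1A and CACNA2D1 fell, with 11.7, 28.3 and 13.7 in endoderm, against 96.1, 95.8 and 61.4 in hESCs, and 10.4, 6.65 and 13.7 in endoderm, against 73.4, 66.6 and 56.7 in hESCs. KCNC4 had 113, 94.8 and 70.2 in endoderm, against 421, 444 and 256 in hESCs. Rises were led by KCNJ10, an inward rectifier, with 97.4, 155 and 82.2 in endoderm, against 8.32, 17.7 and 7.09 in hESCs (3.27 ± 0.37 SE, limma adjusted p = 0.00403), and KCNG1, with 441, 602 and 661 in endoderm, against 99.9, 178 and 106 in hESCs. KCNJ10, KCNG1 and GABRD kept their calls whichever library was left out. The 6 rises were 2 without either G1/S library. The 21 falls were 9 without hESC S, 3 without endoderm G1/S and 2 without hESC G1/S. With the fit limited to regions with a mean of at least 50, 7 members fell and 5 rose.

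Interferon and MHC class I genes fell in 8 of 42 and rose in 2 (70 genes listed, median -0.38). The class I genes HLA-B, HLA-C and HLA-E did not pass, with differences of 0.64, 0.85 and 0.63, and neither did B2M, with -0.35. The immunoproteasome subunits fell, PSMB8 with 50.4, 41.6 and 37.7 in endoderm, against 301, 535 and 362 in hESCs (-3.15 ± 0.33 SE, limma adjusted p = 0.00342), and PSMB10 with 239.6, 424 and 255 in endoderm, against 787, 906 and 905 in hESCs. PSMB9, the third such subunit, had 4.83, 4.99 and 1.71 in endoderm, against 31.8, 42.7 and 33.7 in hESCs (-3.01 ± 0.54 SE, limma adjusted p = 0.0152). STAT2 and STAT6, which carry cytokine signals, fell, STAT6 with 129, 129.8 and 115 in endoderm, against 264, 275 and 220.3 in hESCs. IFITM1 and IFITM3 rose, IFITM3 with 2772, 3552 and 2225 in endoderm, against 903, 1948 and 1317 in hESCs (1.08 ± 0.25 SE, limma adjusted p = 0.0307). PSMB8 alone kept its call whichever library was left out. The 2 rises were 1 without endoderm G1/S or hESC S and none without hESC G1/S. The 8 falls were 4 without endoderm S, 2 without hESC S and 1 without either G1/S library.

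Metabolic lists held shares nearer to that of all genes. Amino acid, one-carbon and polyamine genes rose in 8 of 63 and fell in 3 (76 genes listed, median 0.064). SLC7A5 and SLC3A2, the 2 chains of a transporter of large neutral amino acids, had 6434, 12499 and 8989.7 in endoderm, against 1498, 3233 and 2212 in hESCs, and 4354, 4931 and 6304 in endoderm, against 919, 1542 and 1656 in hESCs, with pair differences of 2.10, 1.95 and 2.02, and 2.24, 1.68 and 1.93. ASNS, asparagine synthetase, had 850.0, 368 and 1049 in endoderm, against 173, 106 and 336 in hESCs (1.90 ± 0.27 SE, limma adjusted p = 0.00678), and DDIT4, an inhibitor of mTOR, 1038, 3968 and 1912 in endoderm, against 381, 736 and 486 in hESCs. The transporter chains kept their calls whichever library was left out. The 8 rises were 5 without either S library, 4 without endoderm G1/S and 3 without hESC G1/S. The 3 falls were 6 without either G1 library and none without either G1/S library or either S library.

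Fatty acid and lipid genes rose in 3 of 57 and fell in 6 (79 genes listed, median -0.26). ACOX3, a peroxisomal oxidase, had 426, 609 and 337 in endoderm, against 120.3, 175 and 114 in hESCs, while ACADVL, of mitochondrial fatty acid oxidation, had 1239, 2028 and 1342 in endoderm, against 3301, 3539.9 and 3023 in hESCs (-1.13 ± 0.22 SE, limma adjusted p = 0.0199) and FADS3 519, 692 and 604 in endoderm, against 1094, 1921 and 1401 in hESCs. Globin, haem and iron genes rose in 2 of 29 and fell in 3 (53 genes listed, median -0.32), shares near those of all genes. TFRC, the transferrin receptor, had 238, 91.5 and 134 in endoderm, against 62.8, 40.6 and 43.1 in hESCs, and TFR2, its hepatic relative, 7.60, 1.66 and 6.85 in endoderm, against 32.5, 49.98 and 26.6 in hESCs. ERAF, the older name of the haemoglobin chaperone AHSP, had 2.07, 0 and 0 in endoderm, against 42.4, 45.8 and 37.8 in hESCs (-4.88 ± 0.70 SE, limma adjusted p = 0.00738). Of the members of both lists, DGAT2 alone kept its call whichever library was left out. In the lipid list, the 3 rises were 1 without either G1/S library. The 6 falls were 2 without endoderm S, 1 without hESC S and none without either G1/S library. In the iron list, the 2 rises were 1 without either S library and none without either G1/S library. The 3 falls were 5 without either G1 library, 1 without endoderm G1/S or hESC S and none without hESC G1/S.

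Markers of other cell types were measured in the same libraries. Of 3 mesendoderm markers, EOMES and MIXL1 rose, and the sum of all 3 was 3966 to 10433 in endoderm and 260.5 to 325 in hESCs. Of 4 mesoderm markers TWIST1 rose, with sums of 296 to 443 in endoderm and 183 to 247 in hESCs. Of 4 neuroectoderm markers, PAX6, OTX2 and NCAM1 rose. The sums of 5420 to 11844 in endoderm and 5961 to 9044 in hESCs came mostly from NES, which did not pass. NES had 4854, 10962 and 9188 in endoderm, against 7469, 8959 and 5882 in hESCs, so the sums do not show the rises of the other markers. Of 8 primitive and visceral endoderm markers, 6 rose and TTR fell, with sums of 7408 to 10122 in endoderm and 1198 to 1269 in hESCs. Trophoblast markers summed to 139 to 303 in endoderm and 216 to 319 in hESCs, and GATA3 rose while KRT7 and TFAP2C fell. Fibroblast markers summed to 5127 to 7502 in endoderm and 7785 to 10092 in hESCs, with VIM up and THY1 and COL1A1 down. EOMES, MIXL1, TWIST1, PAX6, OTX2 and 4 of the 6 rises among primitive and visceral endoderm markers kept their calls whichever library was left out. None of the trophoblast or fibroblast calls did, and none of them passed without the hESC G1/S library. TTR was the only marker at 0 in every endoderm library, and it entered the test through its hESC values alone. The part of other cell types in the results was not tested.

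Among regions lower in 2 pairs, the sign was lost most often where the remaining pair was G1/S, as given above. Among genes with a mean of at least 50, 272 were lower in endoderm by at least 1 in all 3 pairs. Another 210 were so in the G1 and S pairs but not in the G1/S pair, and 80 of these had the opposite sign there. In the 80, the median values were 89.1, 71.5 and 80.4 in endoderm, against 371, 49.5 and 522 in hESCs, so it was the hESC G1/S library that stood low. In the 272, the median values were 47.0, 61.6 and 42.8 in endoderm, against 221, 226 and 213 in hESCs. On the other side, 310 genes higher by at least 1 in the G1 and S pairs were so in the G1/S pair too, and 209 were under that size there, 41 of them with the opposite sign. In the 41, the median values were 154, 68.2 and 179.7 in endoderm, against 48.4, 77.0 and 61.4 in hESCs, so the endoderm G1/S library lay below the other endoderm libraries there and hESC G1/S above the other hESC libraries.

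The 80 genes included HES1, a Notch target and repressor, with 83.5, 51.6 and 61.6 in endoderm, against 1184, 39.6 and 1328 in hESCs. CALU, a calcium-binding protein of the secretory pathway, had 49.0, 53.2 and 59.9 in endoderm, against 1586, 23.9 and 2183 in hESCs, and TOMM7, of the mitochondrial import channel, 253, 148 and 161 in endoderm, against 2305, 108 and 5676 in hESCs. MRPS24, a mitochondrial ribosomal protein, had 191, 96.5 and 134 in endoderm, against 1695, 68.7 and 2492 in hESCs, and AASS, of lysine breakdown, 109, 98.2 and 108 in endoderm, against 1214, 76.0 and 1041 in hESCs. In all 5 the hESC G1/S library lay below every endoderm library, while hESC G1 and S lay above them all. None passed the threshold, with limma adjusted p between 0.0726 and 0.103. These 5 were chosen after their values were seen. The median GC content of the transcripts' last 500 bases was 46.1% in the 80 genes and 57.2% in the 272 lower in all pairs, and its part was not tested.

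**Figure D5:**
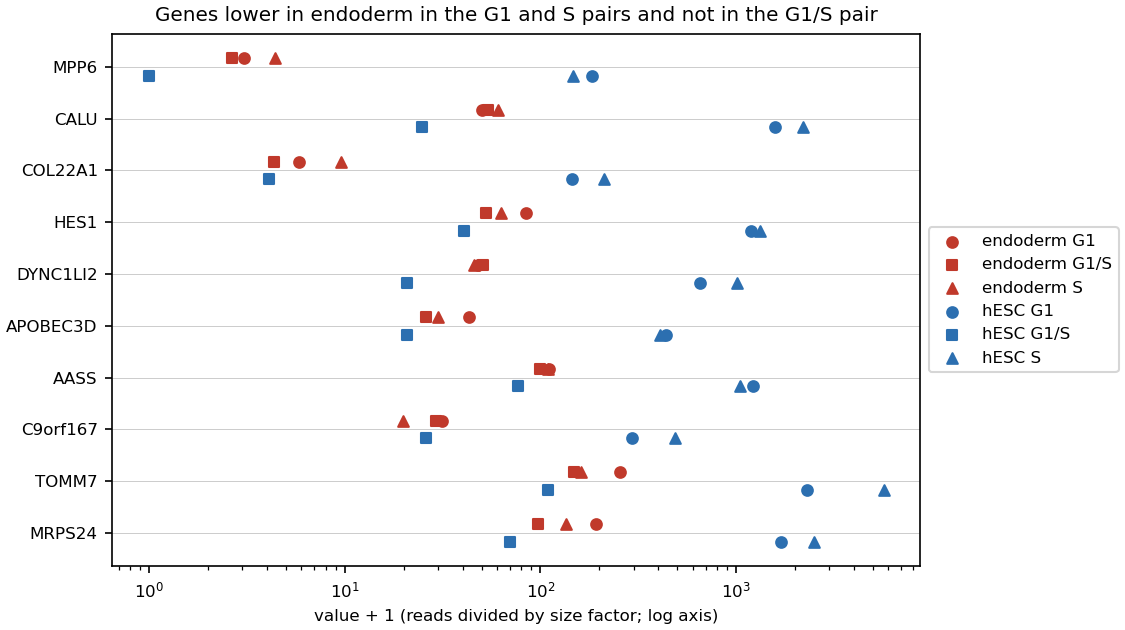
Value + 1 in each library on a log axis for 10 genes at least 1 lower in endoderm in the G1 and S pairs and higher in the G1/S pair, endoderm in red above hESC in blue, with the marker shape giving the phase. The blue square, hESC G1/S, lies with or below the red points, while the blue circle and triangle lie far to the right, as for CALU at 23.9 in hESC G1/S and 1586 and 2183 in hESC G1 and S.

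The 5 genes with the largest differences of opposite sign between pairs, among genes with a mean of at least 50, did not pass the threshold. PDGFB, a platelet-derived growth factor, had 372, 1649 and 994 in endoderm, against 1303, 752 and 258 in hESCs, which gave differences of -1.80, 1.13 and 1.94. ATF4, a stress-response factor, had 143, 34.9 and 35.9 in endoderm, against 94.6, 8.33 and 154 in hESCs, and DCBLD1 73.9, 63.2 and 53.1 in endoderm, against 228, 15.6 and 343 in hESCs. MGC24975 and WIBG had pair differences of -2.26, 1.46 and 1.90, and -3.06, 1.77 and -4.48. For PDGFB and MGC24975 the G1 pair went against the other pairs, for DCBLD1 and WIBG the G1/S pair did, and for ATF4 the S pair did.

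Of the regions with no gene name and a mean of at least 50, 112 of 712 rose (15.7%) and 83 fell (11.7%), against 641 (9.85%) and 508 (7.81%) of all 6507 regions at that mean. Over all 4300 regions with no gene name, 291 rose (6.77%) and 389 fell (9.05%). Without the hESC G1/S library the 112 and 83 were 54 and 34, and without that of endoderm 66 and 49. A region at chr14:94297812-94298062 on the minus strand, 10881 bases from the region of GSC on the same strand, had 215, 275 and 95.9 in endoderm, against 4.54, 6.25 and 1.18 in hESCs (5.34 ± 0.39 SE, limma adjusted p = 0.00162). Another at chr8:11576625-11576824, 25999 bases from a region of GATA4 on the same strand, had 175, 552 and 346 in endoderm, against 3.78, 3.12 and 5.32 in hESCs (6.02 ± 0.45 SE, limma adjusted p = 0.00172). A region at chr4:41982621-41982790 on the minus strand had 15.2, 48.2 and 13.7 in endoderm, against 446, 425 and 523 in hESCs (-4.35 ± 0.44 SE, limma adjusted p = 0.00326). These were chosen after their values were seen. None is assigned to a gene here.

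DUSP1, a phosphatase of MAP kinases, was the only gene name with regions called in opposite directions. The region at chr5:172127714-172127954 had 40.7, 63.2 and 51.3 in endoderm, against 6.05, 9.37 and 13.6 in hESCs (log2 difference 2.35 ± 0.43 SE, limma adjusted p = 0.0165). The region at chr5:172131861-172132014 had 2.76, 0 and 0 in endoderm, against 26.5, 23.9 and 14.8 in hESCs (-3.83 ± 0.79 SE, limma adjusted p = 0.0230), on 4 endoderm reads in all. Both lie on the minus strand, so the region that fell is upstream of the one that rose. Whether it is an end of a DUSP1 transcript was not tested.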

How the data were processed

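The table holds 3' RNA-seq signal in 14686 regions for 6 libraries. Per the labels' protocols, oligo-dT selected RNA was heat-sheared and 3'-end fragments were PCR amplified and sequenced on a Genome Analyzer IIx. The deposited signal values are whole reads divided by a size factor per library (100% whole at a tolerance of 1e-06), and builds hg18 and NCBI36 are listed, with tools Bowtie 0.12.7, CASAVA 1.5 and DESeq 1.5.24, per the submitters' processing notes, which state no roles. Positions are those deposited, on hg18. A region that starts after its end is on the minus strand. Of 9588 names, 7932 are current symbols and 1202 older ones.

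Values were tested as log2(value + 1) with limma 3.58.1 in R 4.3.3, with terms for type and phase, an intensity trend and Benjamini-Hochberg adjustment at 0.05. Regions needed log2(value + 1) of at least 1 in 3 libraries, which removed 29 and kept 14657, and the fit had 2 residual degrees of freedom. A log2(value + 1) difference understates the change of low genes. Reads recovered from the signal were also tested with edgeR 4.0.16 and DESeq2 1.42.0. The limma step was tested on simulated data.

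A gene is its region with the highest mean. Named genes are the 15 higher and 15 lower, past the threshold with a mean of at least 50, whose smallest pair difference was largest, the 5 higher and 5 lower with the largest mean, the list members that passed or define their list, and the 5 with the largest opposite pair differences at that mean. The lists and members were chosen with earlier results of these data known. Fits with 1 library left out, without both G1/S libraries, without the phase term and with other scalings, filters and added values were run. Paralogs and pseudogenes such as those of IFITM, LEFTY and keratin genes may share reads. Values of some members are not reported here.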

Additional observations from a re-analysis of the deposited data

How the results depend on the processing

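The count of 2125 regions past the threshold was 986 among regions with a mean of at least 50, where fewer were tested, and 409 without both G1/S libraries. With 1 library left out it ranged between 426 and 2398. The count of 1670 that also differed by at least 1 in all 3 pairs was 685, 409 and between 426 and 1951 in the same fits, and 648 with at least 2 in every pair. The remaining alternatives gave between 1466 and 2780 regions past the threshold, with 1990 from edgeR and 2780 from DESeq2. The share of calls that were higher was 59.9% without hESC G1 and 61.4% without hESC S, against 47.6% with all libraries. The cause of these shifts was not tested. Scalings moved the median of all regions by under 0.1. Most calls were lower with all libraries and higher in some fits, among them those without hESC G1 or hESC S. Over the named genes, 4997 values kept their side of the threshold, 1283 lost it and 7 gained it, and of the list counts 626 held and 254 moved. Without the intensity trend, matrix genes had 9 rises and 7 falls, pluripotency genes 3 and 6, and homeobox and T-box factors 12 and 3. In the fit to regions with a mean of at least 50, forkhead, SOX and GATA factors had 6 and 3.

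Deviations of same-phase libraries from their type's mean had correlations of 0.00885 for G1, 0.353 for G1/S and 0.0848 for S, against 0.390 between endoderm G1 and hESC S, so same-phase libraries did not all deviate together. Without the replicate block 1825 regions passed, and 1580 with at least 1 in all pairs. Depth limits genes of few reads: below a mean of 20, 8.14% of regions passed.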
